A study of Vitis vinifera with 24 samples.

Results

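The 200 grapevine probes described here were low at the end of veraison (EV) after being high at its beginning (BV), and were then level until harvest (H). They were chosen from the deposited log2 intensities of Sangiovese berries by 3 values per probe: the mean of the 6 arrays at BV, the mean of the 6 arrays of defoliated vines at EV, and the median of the 9 arrays at H. Probes whose harvest value lay within 0.5 of the EV value were kept (62360 of 117999 grapevine probes), and the 200 with the most negative change between BV and EV were taken. The members are thus 0.321% of the level probes and 0.169% of all grapevine probes. The fall and the level harvest are what the selection used, so they are given as a description and were not tested.

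Sangiovese is a red wine grape, and each array held RNA from a pool of berries, without seeds, from 3 vines of a block. PB vines lost the leaves of 6 basal nodes before flowering, at Julian day (JD) 147, and their berries were sampled at BV, EV and H. V vines were defoliated in the same way at veraison, at JD 211, and their berries were sampled at EV and H only. C vines kept their leaves and were sampled at all 3 stages, so that 24 arrays fell into 8 groups of 3. All vines carried the same cultivar, and the groups differed in no allele or line. The labels of the other arrays speak of defoliation, but those of C at EV and at H speak of an experiment on cluster thinning, so that treatment and label set cannot be told apart in comparisons with C at EV or at H.

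Veraison is the turn from a hard, green, acid berry that stores malic acid and tannins to one that softens, gains sugar and, in red cultivars, colours. Transcripts of photosynthesis, cell division and tannin synthesis are generally known to decline in berries around this time, while those of sugar transport, wall loosening and anthocyanin synthesis increase. The tables at hand give neither a gene nor a sequence for the probe identifiers. The members are therefore named by probe identifier, no function is given to any of them, and the labelled tissue could not be checked against marker genes.

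The probes spanned low to high brightness before the fall, and most were dim after it. Their mean at BV ran between 7.26 and 12.78 on the log2 scale with a median of 8.82, and their mean at EV in defoliated vines ran between 5.06 and 10.61 with a median of 6.39. At H the median was 6.26. Among all grapevine probes, the median member stood at the 24.7 percentile at EV and at the 54.1 percentile at BV. The change between BV and EV ran from -5.68 to -1.88 with a median of -2.27, a median fold of 4.82. A fall of 2 or more was seen in 159 members, of 3 or more in 23 and of 4 or more in 8. These are levels of a transcript in pooled tissue, in which fewer cells of a type and less RNA per cell cannot be told apart.

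Falls of this size were mostly not followed by a level harvest. At any harvest value, 558 grapevine probes fell as far as the last member. Of these, 258 lay a further 0.5 or more lower at H, and 100 lay 0.5 or more higher. The opposite pattern, a rise of the same size followed by a level harvest, was met by 66 probes. None of the 19091 random-sequence probes, which serve as negative controls, met either. Their 95th percentile at BV was only 6.98 to 7.89 by array, while the lowest BV mean of a member was 7.26. Few of them lay high enough to fall that far, so their absence among the falls says little about noise in the members.

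By array, the median of the members at BV was 8.61, 9.61 and 8.38 in the PB pools and 9.53, 8.84 and 8.79 in the C pools. At EV it was 6.29, 6.21 and 6.88 in PB, 6.34, 6.43 and 6.30 in V and 6.80, 7.00 and 6.81 in C. At H it was 6.41, 6.75 and 6.43 in PB, 6.39, 6.51 and 6.25 in V and 6.41, 6.54 and 6.49 in C. Every array at EV and H lay below every array at BV in this median, the C arrays at EV, which the selection did not use, included. The 6 BV arrays were the most uneven of the set, with PB replicate 2 and C replicate 1 standing above the other 4.

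**Figure D1:**
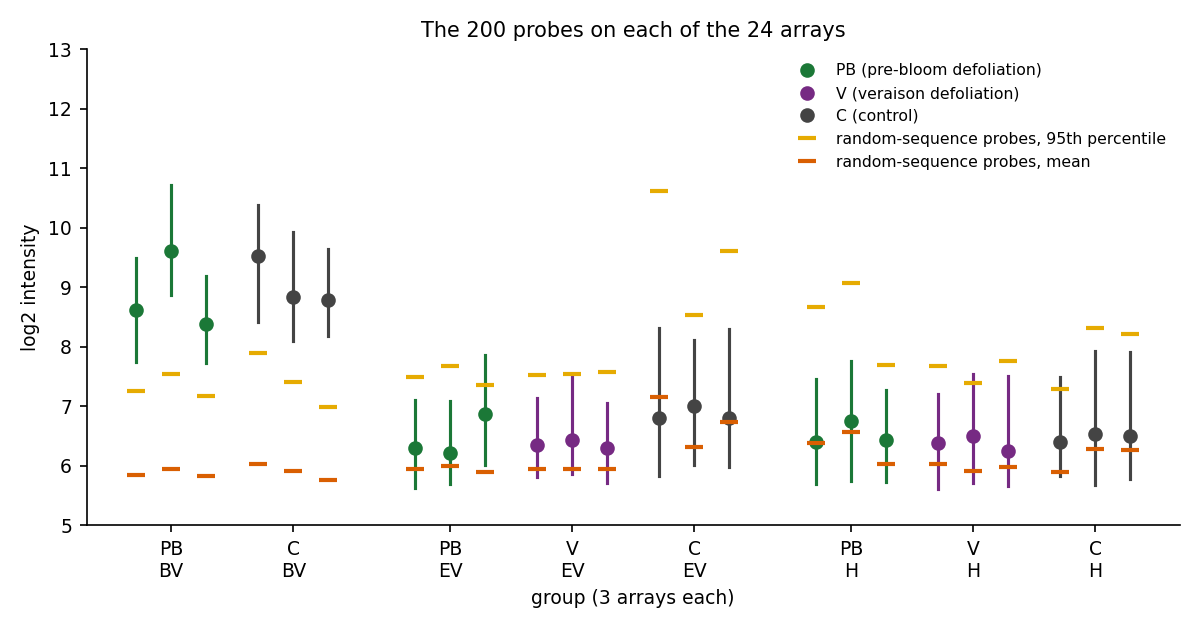
Median (points) and quartiles (lines) of the log2 intensity of the 200 probes on each of the 24 arrays, by group along the horizontal axis, with the mean and 95th percentile of the random-sequence probes of the same array. The BV medians lie between 8.38 and 9.61, all above the 95th percentile of the random-sequence probes, and the medians at EV and H lie between 6.21 and 7.00, all below it.

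The fall carried most members down to the level of the random-sequence probes. At BV, 193 members lay above the 95th percentile of the random-sequence probes on at least 4 of the 6 arrays, and 136 did so on all 6. At EV, 32 members lay above it on at least 4 of the 6 arrays of defoliated vines, 19 on all 6, and 116 on none. With the mean of the random-sequence probes as the limit, 128 members were above it on at least 4 of these arrays. At H, 8 members lay above the 95th percentile on all 9 arrays and 100 on none. A level harvest in the members near the mean of the random-sequence probes therefore sets no limit on how much further those transcripts fell. The 32 members above the 95th percentile on at least 4 of these arrays at EV had a median change of -2.10, against -2.29 in the other 168.

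The members with the deepest falls were VitusP00192138 and VitusP00192142, which stand next to each other in the order of identifiers. VitusP00192138 measured 10.85, 12.44 and 11.06 in PB and 12.92, 11.07 and 12.04 in C at BV. At EV it measured 6.11, 6.56 and 5.62 in PB, 6.42, 6.35 and 5.22 in V, and 6.20, 5.29 and 5.22 in C. At H its values were 5.34, 6.03 and 5.76 in PB, 6.48, 6.32 and 6.70 in V, and 5.69, 5.59 and 5.90 in C. Its lowest BV array was thus more than 4 above the highest array of either later stage, and its change was -5.68, a fold of 51.3. VitusP00192142 changed by -5.65, and the correlation of the pair over the 24 arrays was 0.98. This correlation includes the shared fall, by which both were chosen, and its part within the stages was not computed.

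VitusP00159651 and VitusP00159643 followed, with changes of -5.08 and -4.59. VitusP00159643 measured 9.57, 13.88 and 10.14 in PB and 12.10, 11.28 and 9.89 in C at BV. At EV it measured 6.43, 5.66 and 6.74 in PB and 6.80, 6.88 and 6.82 in V, while C stood higher at 8.99, 7.76 and 7.24. At H it measured 6.14, 5.93 and 5.98 in PB, 6.15, 5.97 and 7.23 in V, and 6.28, 7.07 and 6.83 in C. The BV arrays of this probe spanned 9.57 to 13.88 within 1 group, and all of them were above all later arrays. VitusP00159651 averaged 10.49 ± 2.56 in PB and 10.47 ± 1.32 in C at BV (SD, n = 3 each), with PB replicate 2 alone at 13.44.

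The 3 members brightest at BV stayed above the 95th percentile of the random-sequence probes on all 6 arrays of defoliated vines at EV. On C replicate 1 at EV, where that percentile was 10.61, VitusP00229128 (9.84) and VitusP00253347 (7.19) lay below it. VitusP00229128 measured 12.73, 13.09 and 12.25 in PB and 12.81, 12.66 and 12.18 in C at BV. Its EV values were 11.12, 10.93 and 11.21 in PB, 10.15, 9.85 and 10.38 in V, and 9.84, 10.17 and 10.08 in C. At H it averaged 9.96 ± 0.85 in PB, 9.53 ± 0.68 in V and 10.42 ± 0.17 in C (SD, n = 3 each). At EV its PB arrays lay above all V and C arrays. VitusP00069759, the brightest at BV, averaged 12.47 ± 0.95 in PB and 13.09 ± 0.68 in C at BV, 10.11 ± 0.18 in PB, 10.27 ± 0.19 in V and 11.42 ± 0.56 in C at EV, and 10.82 ± 0.44 in PB, 10.25 ± 0.64 in V and 10.49 ± 0.35 in C at H (SD, n = 3 each). The third, VitusP00253347, scattered widely at EV in C (7.19, 10.70 and 10.11) and was even at BV (12.58 ± 0.27 in PB and 12.33 ± 0.20 in C).

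At the other end, the last members inside the list were VitusP00062714 and VitusP00116598, both at -1.88, and the first outside, VitusP00189179 and VitusP00152229, were at -1.88 as well. The harvest limit was as close, since VitusP00164699 was kept with a harvest value 0.50 below that at EV, and VitusP00241700 with one 0.49 above. The list is the end of a continuous distribution, not a separate class of probe.

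Replicate scatter of the members was largest at BV in PB (median SD over the members 0.77) and at EV in C (0.76), and smallest at EV in V (0.42). Over all grapevine probes the median SD was 0.32 in PB at BV, 0.68 in C at EV and 0.29 in V at EV. PB replicate 2 at BV lay above the mean of the 6 BV arrays in 178 members and C replicate 1 in 145, whereas each did so in 49.0% and 49.5% of all probes. These 2 arrays were the 2 highest at BV for 99 members, against 10.8% of all probes. Among the 200 probes with the largest rise and a level harvest, taken by the same rule with its sign turned, the same 2 arrays were the 2 lowest at BV for 114. Without both arrays the rule found 141 of the 200 members again, an alternative chosen after seeing the data. At EV, PB replicate 3 was above the mean of the 6 arrays of defoliated vines in 135 members, against 49.1% of all probes. All these arrays took part in the selection, so the counts by array are not independent of it.

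For 21 members the highest BV array was 1 or more above the next, and for 3 it was 2 or more above. In VitusP00202923 a single array made the fall. It read 15.61 in C replicate 1 at BV, whereas the other BV arrays read 5.46, 6.33 and 6.32 in PB and 5.86 and 5.77 in C. Its EV values were 5.55, 5.52 and 5.14 in PB, 5.80, 5.35 and 6.01 in V, and 6.94, 5.50 and 5.11 in C. At H it read 5.11, 5.81 and 6.98 in PB, 6.59, 5.52 and 5.57 in V, and 6.12, 8.42 and 6.02 in C. This was the sole member whose median at BV was less than 1 above its EV mean. The smallest mean scatter was that of VitusP00012759 and VitusP00281915. VitusP00281915 read 8.43, 8.39 and 8.32 in PB and 7.62, 8.06 and 8.19 in C at BV. It then read 5.42, 5.82 and 6.40 in PB, 5.27, 5.15 and 6.03 in V and 5.43, 5.75 and 5.98 in C at EV, and 5.79, 5.52 and 5.09 in PB, 5.88, 5.71 and 6.03 in V and 5.15, 6.55 and 5.40 in C at H. In 176 members all 6 arrays of defoliated vines at EV lay below all 6 arrays at BV, against 3.5% of all probes, a separation that the selection favours.

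**Figure D2:**
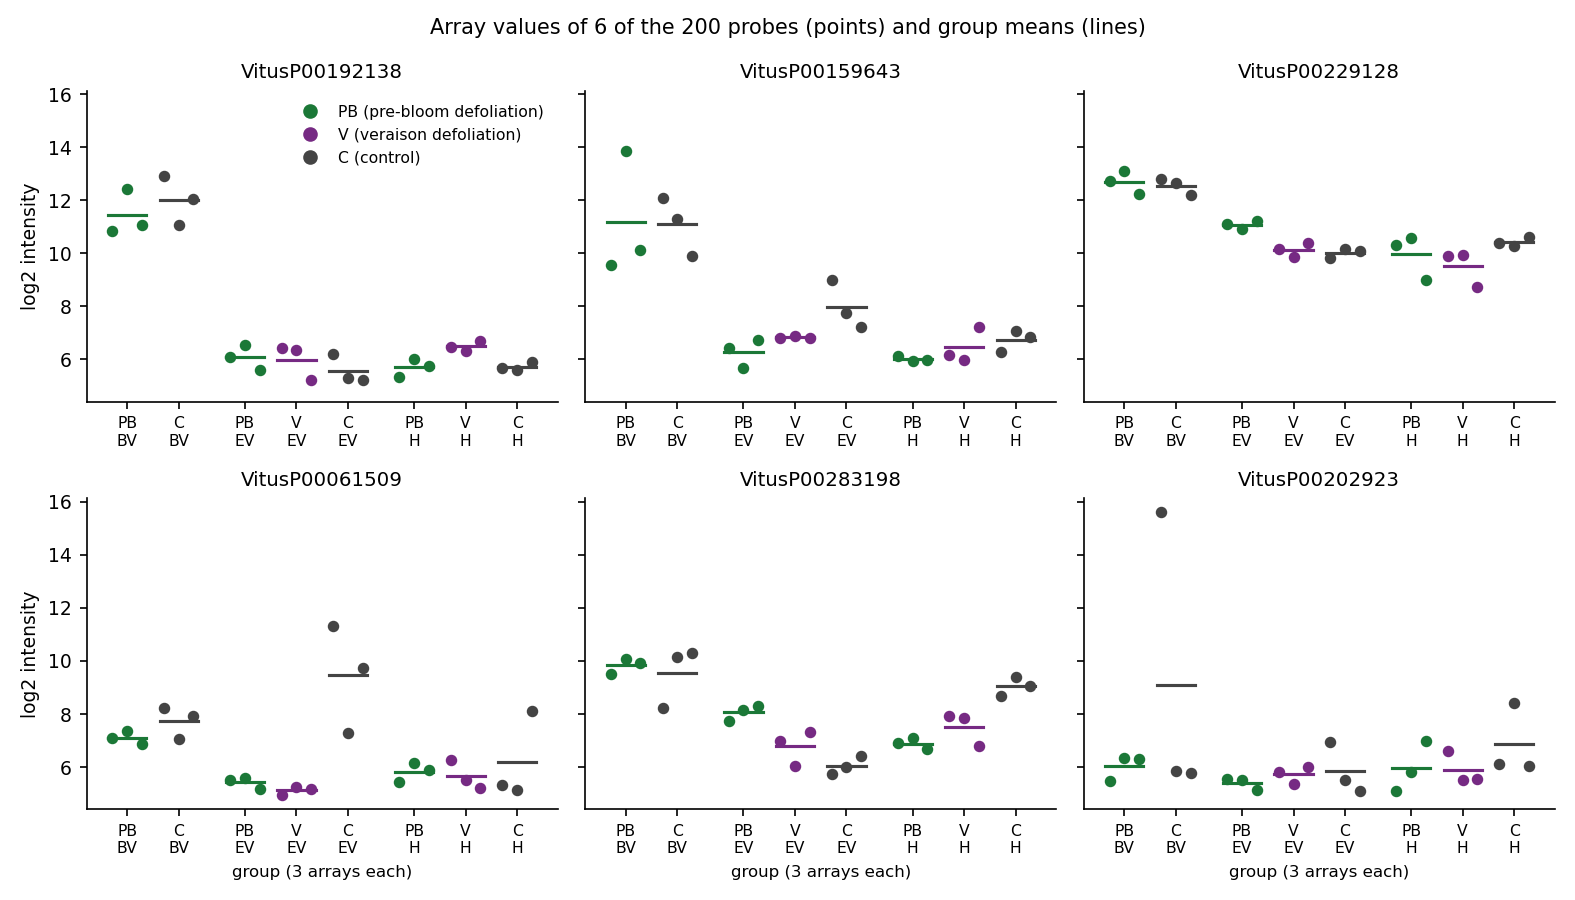
Log2 intensity of 6 of the 200 probes on every array (points) with group means (lines), by group. VitusP00192138 separates BV from all later arrays, VitusP00061509 is high in C at EV (7.30 to 11.34), VitusP00283198 at H is lower in PB (6.66 to 7.08) than in C (8.69 to 9.38), and VitusP00202923 rests on 1 array at 15.61.

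The 3 C arrays at EV were the one set the rule left out, and over the members they too lay below C at BV. C at EV minus C at BV had a median of -2.01 and ran from -6.43 to 1.72. It was -1 or less in 160 members, between -1 and 0 in 24 and above 0 in 16. Over all grapevine probes the median was -0.02, and 24.2% changed by -1 or less. In 140 members the 3 C arrays at EV lay below the 3 C arrays at BV with no overlap, against 20% of all probes, and in 2 members above, against 19.1%. By limma with Benjamini-Hochberg adjustment, 110 members were called lower at EV than at BV in C berries, while 13.3% of all probes were called lower and 11.4% higher. The C arrays at BV took part in the selection, so these shares are not independent of it. With the mean of the random-sequence probes as a covariate, 6 members and 74 of all probes were called, in place of 110 and 29160, while the median change of the members was -2.31. This mean was 6.73 ± 0.42 in C at EV and 5.90 ± 0.13 in C at BV (SD, n = 3 each), so the fit cannot separate it from the stage. Without C replicate 1 at EV, 72 members and 13873 of all probes were called.

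**Figure D3:**
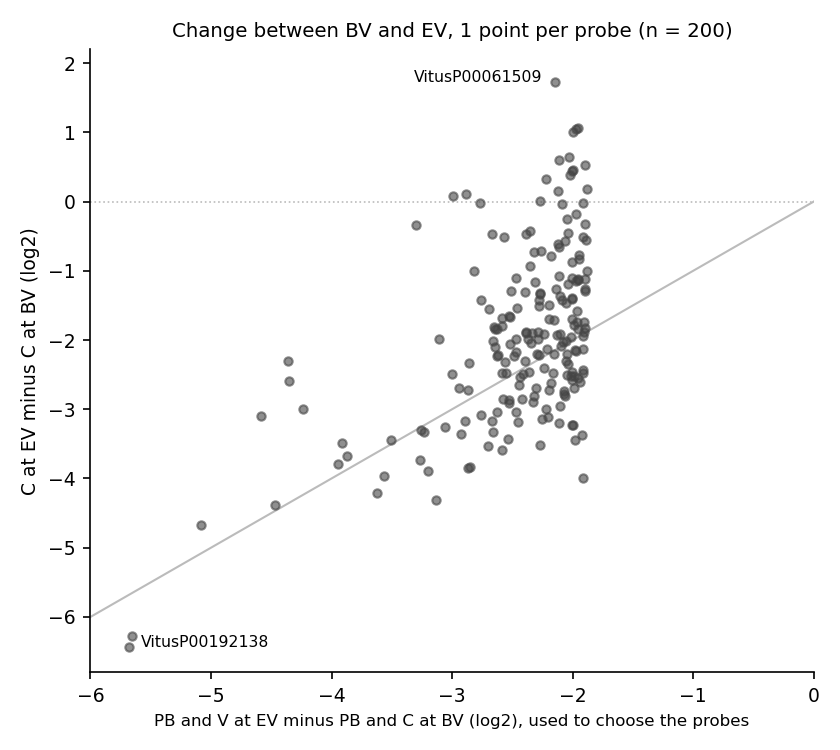
Change between BV and EV in the C berries (vertical axis, log2) against the change by which the probes were chosen (horizontal axis, log2), 1 point for each of the 200 probes, with the line of equal change. Most points lie below 0, 16 lie above it, and the vertical spread from -6.43 to 1.72 is wider than the horizontal one from -5.68 to -1.88.

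At EV itself, the defoliated vines lay lower than C in most members, though by less than the fall. PB and V minus C had a median of -0.42 and ran from -4.19 to 1.81. The median was -0.67 with MAD scaling, -0.74 with a floor at the mean random-sequence probe and -0.15 with that mean as a covariate. C stood 1 or more above the mean of the defoliated vines in 62 members, against 18.2% of all probes, within 1 of it in 133, and 1 or more below it in 5. All 6 defoliated arrays lay below all 3 C arrays in 37 members, against 14.7% of all probes, and above them in 3, against 16.4%. The limma fit called 32 members lower and 2 higher in defoliated vines, against 12.4% and 16% of all probes. Calls over all probes moved with the members when a C array at EV was left out, with 19 members and 15980 of all probes called without C replicate 1, 41 and 45413 without C replicate 2, and 22 and 21565 without C replicate 3, in place of 34 and 33553. Because the EV values of the defoliated vines chose the members for being low, nothing is read from these counts.

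The random-sequence probes moved in the same direction at EV. Their mean was 5.94 ± 0.05 in PB, 5.94 ± 0.0028 in V and 6.73 ± 0.42 in C (SD, n = 3 each), and the median of PB and V minus C over them was -0.58. Their 95th percentile at EV was 7.35 to 7.68 on the arrays of defoliated vines, against 10.61, 8.53 and 9.62 on the C arrays. With this level as a covariate, 0 members and 6 of all probes were called between defoliated vines and C at EV, and the median over the members was -0.15. This level was higher on each C array at EV than on the arrays of defoliated vines, so the fit cannot separate it from the group. The loss of calls is therefore not read as an effect of the random-probe level, whose part in the difference was not tested. In the 200 rising probes PB and V minus C had a median of 0.73. The same PB and V arrays at EV chose those probes for being high, so nothing is read from this value.

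VitusP00061509 stood farthest above the defoliated vines in C. It read 5.50, 5.59 and 5.17 in PB and 4.94, 5.26 and 5.17 in V at EV, against 11.34, 7.30 and 9.75 in C. The lowest C array was thus above all defoliated arrays, and the C arrays spanned about as much as the difference itself. At BV the probe had read 7.09, 7.34 and 6.88 in PB and 8.22, 7.07 and 7.94 in C, so that 2 of the C arrays at EV were above every BV array. VitusP00215329 read 6.19, 6.35 and 5.67 in PB and 5.80, 5.66 and 5.45 in V at EV, against 10.31, 7.87 and 9.29 in C, and VitusP00015949 read 5.49, 5.12 and 5.61 in PB and 6.25, 6.12 and 5.22 in V, against 10.82, 6.37 and 9.49 in C. In all 3 probes C replicate 1 was the highest and C replicate 2 the lowest of the C arrays. The random-sequence probes had this order too (means of 7.15 in replicate 1, 6.31 in replicate 2 and 6.73 in replicate 3). The 200 members together did not, with medians of 6.80, 7.00 and 6.81 in C replicates 1, 2 and 3. These 3 probes were picked as extremes, and a link to the random-probe level was not tested.

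C lay farthest below the mean of the defoliated vines in VitusP00096189, VitusP00283198 and VitusP00188252. VitusP00096189 read 8.45, 9.03 and 9.11 in PB and 8.67, 8.48 and 7.81 in V at EV, against 5.97, 7.95 and 6.43 in C. Its C replicates thus ran in the reverse of the order in the random-sequence probes. VitusP00188252 read 5.58, 7.31 and 7.30 in PB and 7.08, 7.37 and 7.81 in V, against 5.83, 6.01 and 5.88 in C, so that 1 PB array lay below the C arrays. VitusP00283198 read 7.76, 8.15 and 8.32 in PB and 7.00, 6.05 and 7.33 in V, against 5.73, 5.99 and 6.41 in C.

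In C the values at H were near those at EV for most members, with a median of C at H minus C at EV of -0.20. This difference was -1 or less in 58 members and 1 or more in 20, against 18.3% and 22.2% of all probes. In the other treatments, whose EV arrays chose the members, the median harvest change was 0.04 in PB and -0.06 in V, with 18 members at 1 or more and 12 at -1 or less in PB, against 15.4% and 18.0% of all probes, and 16 and 5 members in V, against 7.56% and 9.22%.

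The differences between treatments within a stage were not themselves used by the selection. It still bears on them, since most members lay near background at EV and H. Members also scattered widely at BV, with a median SD in PB of 0.77, against 0.32 over all probes. The differences were tested with limma over all 117999 grapevine probes. Calls needed a Benjamini-Hochberg adjusted p below 0.02 and a log2 difference of 1 or more. At BV, where PB vines had been without their basal leaves since before flowering and C vines had them, 0 members and 0 of all probes (0%) were called. PB minus C had a median of -0.13 over the members, against 0.00 over all probes, and 13 members lay at -1 or less and 1 at 1 or more, against 0.355% and 0.583% of all probes. Without PB replicate 2, which stood above most BV arrays, the median was -0.59, and without PB replicate 3 it was 0.06. At an unadjusted p below 0.05, 5 members passed, against 0.728% of all probes. Without PB replicate 2, 25 members and 1408 of all probes passed. With only PB and C at BV in the limma fit, 10 members and 3033 of all probes passed, in place of 5 and 859. The PB arrays lay above the C arrays with no overlap in 3 members, against 3.38% of all probes, and below in 7, against 2.8%. The lowest p was that of VitusP00200317, which read 8.48, 8.03 and 5.63 in PB and 9.11, 8.56 and 9.25 in C. The PB arrays all lay below the C arrays, 1 of them by far, and the difference was -1.60 (SE 0.59, 95% interval -2.82 to -0.38, limma adjusted p = 1).

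At EV, PB vines were compared with V vines that had lost their leaves during veraison. Again 0 members and 0 of all probes (0%) were called. PB minus V had a median of 0.09, against -0.01 over all probes, with 5 members at 1 or more and 3 at -1 or less, against 0.758% and 0.525% of all probes. The sign of the median rested on single arrays, since it was -0.14 without PB replicate 3 and -0.03 without V replicate 3. In the full fit 2 members passed an unadjusted p below 0.05, against 1.14% of all probes. With only PB and V at EV in the limma fit, 13 members and 7542 of all probes passed, in place of 2 and 1347. PB lay above V with no overlap in 6 members, against 6.71% of all probes, and below in 8, against 5.83%. VitusP00283198, whose values are given above, differed by 1.28 (SE 0.46, 95% interval 0.32 to 2.24, limma adjusted p = 1). In VitusP00229128 the group means were 11.09 ± 0.14 in PB and 10.13 ± 0.27 in V (SD, n = 3 each), a difference under the required 1. No probe met the limit on adjusted p in this comparison, whatever its difference.

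More members differed by 1 or more at H than in PB minus C at BV or PB minus V at EV. The same held for all probes. It did not hold against the comparisons with C at EV. There PB minus C had 10 members at 1 or more and 58 at -1 or less, against 23.2% and 19.0% of all probes. For V minus C at EV these were 4 and 63, against 22.7% and 17.9%. The selection favoured low EV values in PB and V. In PB minus C at H, 18 members lay at 1 or more and 20 at -1 or less, against 5.47% and 6.57% of all probes. In V minus C these were 21 and 30, against 10.6% and 7.73%, and in PB minus V 22 and 18, against 7.59% and 12.5%. In PB minus C at BV, 0.583% of all probes lay at 1 or more. Over the members, PB minus C had a median of -0.07 and ran from -2.34 to 2.27, V minus C had a median of -0.24 and ran from -1.84 to 2.02, and PB minus V had a median of 0.14 and ran from -1.83 to 1.92. The medians over all probes were -0.02, -0.04 and 0.06. The median of PB minus C was 0.01 without C replicate 3, and that of PB minus V was -0.14 with the mean random-sequence probe as a covariate. In each comparison 0 members and 0 of all probes (0%) were called. At an unadjusted p below 0.05, 27 members passed in PB minus C, against 9.16% of all probes, 30 in V minus C, against 16.7%, and 19 in PB minus V, against 17.7%.

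Non-overlapping groups at H were counted in the same way. PB lay above C in 7 members and below it in 14, against 4% and 5.61% of all probes. V lay above C in 11 members and below it in 28, against 7.93% and 11.4%. PB lay above V in 13 members and below it in 11, against 8.86% and 7.77%. These shares, at most 14% of the members, lay within 3 percentage points of those of all probes.

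VitusP00283198 had the lowest p of any member in PB minus C at H. It read 6.91, 7.08 and 6.66 in PB and 7.94, 7.85 and 6.80 in V, against 8.69, 9.38 and 9.07 in C. The PB arrays and the V arrays all lay below the C arrays. PB minus C was -2.17 (SE 0.46, 95% interval -3.13 to -1.20, limma adjusted p = 0.116), which did not pass. Over the alternatives its adjusted p ran from 0.0548 to 1. At BV the probe read 9.51, 10.08 and 9.94 in PB and 8.23, 10.17 and 10.29 in C, so that C at H was near C at BV while PB at H was not. The change of PB minus C between BV and H was -2.45 (SE 0.65, limma adjusted p = 1).

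VitusP00144629 ranked first for the other 2 comparisons at H. It read 5.69, 6.18 and 5.21 in PB and 6.48, 7.22 and 8.54 in V, against 5.87, 5.82 and 4.90 in C. All V arrays lay above all PB and C arrays, and 1 V array stood apart at 8.54. V minus C was 1.88 (SE 0.46, 95% interval 0.93 to 2.84, limma adjusted p = 0.183), and PB minus V was -1.72 (SE 0.46, 95% interval -2.67 to -0.76, limma adjusted p = 0.179). At EV this probe had read 5.18, 5.57 and 5.21 in PB and 5.65, 5.39 and 5.59 in V, against 6.25, 7.40 and 7.03 in C.

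**Figure D4:**
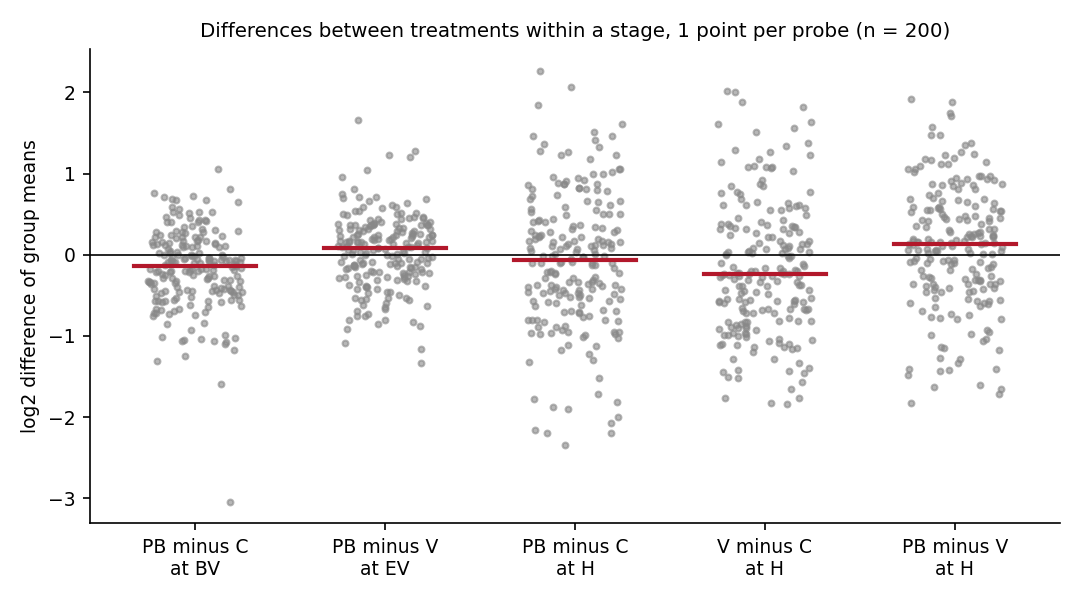
Differences of group means on the log2 scale within a stage for PB minus C at BV, PB minus V at EV, and PB minus C, V minus C and PB minus V at H, 1 point for each of the 200 probes, with the median as a line. The medians lie between -0.24 and 0.14, and the points run from -3.04 to 1.06 at BV, where VitusP00202923 is the lowest, from -1.33 to 1.65 at EV and from -2.34 to 2.27 over the comparisons at H.

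Leaving out 1 array changed the calls at H. Without PB replicate 3, 6147 probes were called in PB minus V, 3 members among them: VitusP00019003, VitusP00220314 and VitusP00227341. VitusP00019003 read 10.81, 11.75 and 8.75 in PB and 9.30, 8.08 and 8.18 in V, so that the third PB array lay among the V arrays. Without C replicate 1, 2901 probes were called in V minus C, the member VitusP00188252 among them, which read 7.83, 7.93 and 8.55 in V, against 7.86, 5.12 and 5.33 in C. These members were named after their values were seen.

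The 2 tests of whether treatment differences changed with stage gave 0 calls among the members and among all probes (0%). For PB minus C between BV and H, 13 members passed an unadjusted p below 0.05, against 4.18% of all probes. For PB minus V between EV and H, 11 passed, against 7.59%. VitusP00283198 ranked first in both, and its change of PB minus V was -1.93 (SE 0.65, limma adjusted p = 0.64).

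Members lay close together in the order of probe identifiers, which the selection did not use. Of the 200, 77 stood in 34 runs of adjacent rows, 28 of them pairs, 4 triples, 1 of 4 and 1 of 5 probes, and 123 stood alone. The 308 other probes directly beside a member had a median change between BV and EV of -1.14, and 53.2% of them fell by 1 or more, against 3.54% of all grapevine probes. This share was 35.3% for 2 rows apart, 17.2% for 3, 9.3% for 4 and 5.5% for 10. Over all pairs of neighbouring grapevine probes, whether or not near a member, the median correlation over the 24 arrays was 0.28 at 1 row apart and 0.02 at 10. The files do not say whether neighbouring identifiers belong to 1 gene, so the number of transcripts behind the 200 probes is unknown. Runs and lone members together number 157.

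**Figure D5:**
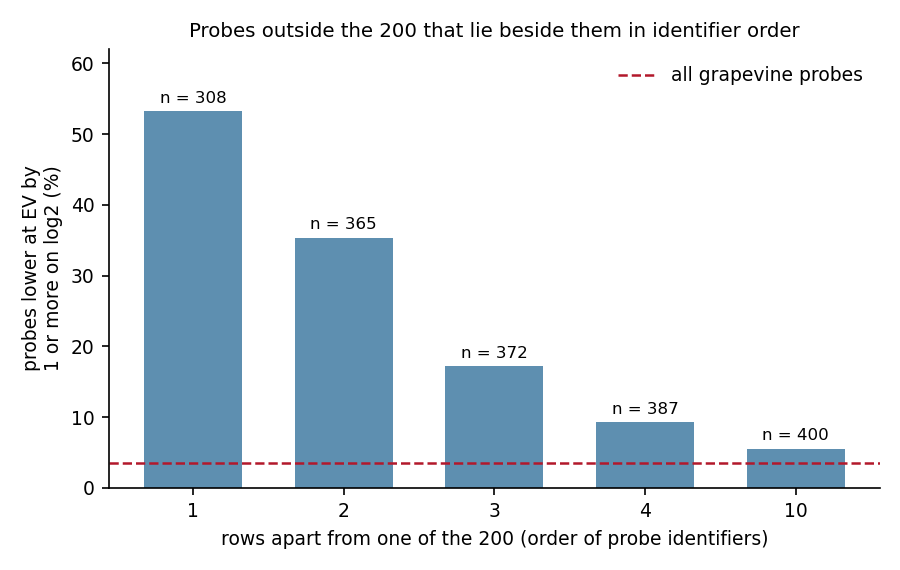
Share of the probes outside the list that were lower at EV than at BV by 1 or more on the log2 scale (bars, %), by their distance in rows from one of the 200 probes, with the number of probes above each bar. The share is 53.2% directly beside a member and 5.5% at 10 rows, against 3.54% of all grapevine probes (dashed line).

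The longest run, VitusP00159642 to VitusP00159652, held 5 members with changes of -5.08 to -1.92, yet these differed in C at EV, which lay between 0.54 below and 2.18 above the defoliated vines. The probe before the run, VitusP00159637, changed by -2.74 and then by a further -1.60 at H, which kept it off the list, and the one after it, VitusP00159656, stayed bright at 12.49 at BV, 13.09 at EV and 12.89 at H. The run of 4, VitusP00018119 to VitusP00018125, was more uniform, with changes of -3.95 to -2.52 and a lowest pairwise correlation of 0.84. Another pair, VitusP00146344 and VitusP00146346, changed by -4.47 and -3.50.

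The harvest limit split some neighbours. Next to VitusP00192142 stood VitusP00192146, at 12.66 at BV, 7.26 at EV and 5.57 at H, and VitusP00192147, at 11.79, 6.72 and 5.44. Both fell between BV and EV by over 5, as the members beside them did, and both were left out because they changed by a further -1.69 and -1.28 between EV and H. All 4 probes ended at H between 5.44 and 5.90, near the mean of the random-sequence probes of 5.89 to 6.56. At EV the 2 members stood at 6.05 and 5.94, near that mean. The other 2, at 7.26 and 6.72, stood above it, though below the 95th percentile of 7.35 to 7.68 on the arrays of defoliated vines.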

How the data were processed

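The authors deposited 1 fluorescence intensity per probe and array, on a linear scale and already normalized, from 1-colour (Cy3) NimbleGen arrays. The quartiles matched between arrays and random-sequence probes had been normalized together with the grapevine probes, which makes levels relative within an array. The software is not given in the sources used here. Of 139363 rows, 137090 held values, 117999 of grapevine probes and 19091 of random sequence. Intensities were put on the log2 scale with no filter and no further scaling. The members and lists were chosen with earlier results of these data known. The rule used 21 arrays, all but C at EV.

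One limma model (limma 3.58.1, R 4.3.3) had a mean for each of the 8 groups over the 24 arrays (16 residual degrees of freedom). Calls needed a Benjamini-Hochberg adjusted p below 0.02 over all grapevine probes together with a log2 difference of 1 or more in either direction. The study used SAM, which was not run here. The labels call the arrays biological replicates, and p-values measure the spread between these pools, with 1 estimate per probe shared by all 8 groups. The median SD over all probes ran from 0.29 in V at EV to 0.68 in C at EV. Groups with little scatter, as at BV, were thus judged by a wider spread than their own. A count of 0 calls does not show that the groups were equal. Counts used Python 3.11.15 and pandas 2.3.3, and the scripts were tested on simulated data.

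The probes named were those with the most negative change (4), the brightest at BV (3), those nearest the limits of the rule, the 3 highest and 3 lowest in C at EV against the defoliated vines, those with the largest and smallest replicate SD (2 each), and the member with the lowest p in each tested comparison. Gene lists and cell type markers were laid out but could not be run without gene names. The alternatives were other scalings, a floor or filter at the mean random-sequence probe, the random-probe level as a covariate, an adjusted p below 0.05, a trend and robust fit, a replicate block, a model restricted to the groups of the comparison, other settings of the rule and leaving out each array. The number of arrays limits the precision.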

Additional observations from a re-analysis of the deposited data

How the results depend on the processing

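The counts of members called between treatments within a stage, and in both tests across stages, were 0 under each alternative tried, except that leaving out single arrays gave 0 to 3 members in PB minus V at H (3 without PB replicate 3) and 0 to 1 in V minus C at H (1 without C replicate 1). Over all probes, PB minus C at H gave 0 to 473 calls when single arrays were left out, and 9 at an adjusted p below 0.05. The replicate block gave 0 members in all 7 comparisons. Correlations of same-numbered arrays, taken on deviations from the group means, ran from -0.366 to 0.313. They cannot settle whether equal numbers stand for the same block, which is unknown here. The median of PB and V minus C at EV, -0.42, was -0.67 with MAD scaling, -0.63 with quantile normalization over the grapevine probes, -0.74 with a floor at the mean random-sequence probe, -0.15 with that mean as a covariate, and -0.52 to -0.37 without single arrays at EV. The median change of C between BV and EV, -2.01, was -1.76, -1.79 and -1.49 under the same 3 settings, -2.31 with the covariate, and -2.14 to -1.77 without single C arrays (-1.77 without replicate 1 at BV). Leaving out PB and V arrays at EV and C arrays at BV was added after seeing the data. With the mean random-sequence probe as a covariate, members called between defoliated vines and C at EV were 0 in place of 34 (6 in place of 33553 over all probes), and those between C at EV and at BV 6 in place of 110 (74 in place of 29160). With only the groups compared in the fit, the second count was 52. The mean random-sequence probe was highest in C at EV of all groups, so calls lost with the covariate cannot be separated from the group differences. Membership depended on the harvest limit and on the EV arrays used. Of the 200 members, 104 were found again with a limit of 0.25, 126 with a limit of 1, 36 with only probes above the 95th percentile of the random-sequence probes at EV, and 95 with the C arrays at EV included. Other scalings and summaries found 140 to 187, and leaving out single arrays 153 to 186. Against the 99th percentile of the random-sequence probes, 15 members were above background at EV, in place of 32. Most EV and H values lie at background, so that changes below it are not measured there, and 3 arrays a group limit each difference.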
